A study of Drosophila melanogaster with 34 samples.

Results

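The small heat shock protein genes of *Drosophila* were followed in nuclear RNA of flies before and after neurons were driven with light. The nuclei were collected through a tag expressed in neurons of the mushroom body (MB), the centre of olfactory memory of the fly. Small heat shock proteins are chaperones built around an alpha-crystallin domain. They work without ATP, assemble into large oligomers, bind unfolding proteins before these aggregate, and hand them to Hsp70 for refolding. In flies, most of the heat-inducible members lie side by side in 1 gene cluster at cytological band 67B of chromosome arm 3L, and they are classic targets of heat shock factor (Hsf), which binds inverted repeats of the letters GAA upstream of heat-inducible genes.

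The members were the rows of the exon count table whose gene name was Hsp22, Hsp23, Hsp26, Hsp27, Hsp67Ba, Hsp67Bc or l(2)efl, 7 of the 17559 genes in the table. Of these, 6 were among the 11670 genes that passed the filter on low counts and were tested. Hsp22 was listed at 0 in every library. The libraries came from 5 groups of 3. The labels give the line of all flies as CS10, and the study's lines had been outcrossed with its control line w(CS10). The flies carried FLAG-KASH, which tags the nuclear envelope, and CsChrimson, a channelrhodopsin opened by red light, both under the MB driver MBp-LexA. The plasmid of this driver holds a Mef2 enhancer that is active in MB neurons and the minimal promoter of hsp70Bb, itself a heat shock gene. CsChrimson flies were fed all-trans-retinal, its cofactor, before illumination. The naïve group was not illuminated. The other 4 groups received 5 min of red light and were frozen with no rest or after 5, 10 or 15 min of rest. No group illuminated without CsChrimson was analysed here, and the age of the flies is not given in the sources used here. Nuclei were pulled out of crosslinked heads with anti-FLAG beads, so that each library pooled the heads of many flies. Whether the 3 libraries of a group came from separate sets of flies is not stated, and the p-values therefore measure the spread between these libraries, which may be technical.

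Total counts per library ranged from 10392334 to 18809246. All 11 MB neuron markers examined were detected in every library, and so were all 7 glia, all 10 photoreceptor and all 11 muscle markers, so the preparations also held RNA of other cells of the head. In such bulk samples, more cells of a type and more RNA per cell cannot be told apart. The summed level of the 10 photoreceptor markers stood apart after 15 min of rest, at 40559 to 48553 CPM (counts per 1000000 counts of the library, after scaling) against 26724 to 33105 CPM over the other 4 groups, and that of the 4 tested fat body markers, at 18147 to 19604 CPM against 11598 to 13887 CPM. The summed level of the 11 MB neuron markers was 3070 to 3784 CPM over all 15 libraries. Such sums depend on the markers chosen and do not measure the share of a cell type. The part of the other cells of the head in the values below was not tested.

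The 7 members took 0.0340% ± 0.00151 (SD, n = 3) of all counts in naïve flies, 0.111% ± 0.00831 right after light, 0.508% ± 0.0379 after 5 min of rest, 0.472% ± 0.00502 after 10 min and 0.386% ± 0.0299 after 15 min. The largest step of the group means was that from the end of the light to 5 min of rest, and every illuminated group lay above the naïve one. Hsp26 and Hsp27 took most of these counts in every illuminated group. Hsp23 and Hsp67Bc followed after the light had ended, Hsp67Ba rose by a smaller factor, and l(2)efl was called higher only after 10 min of rest. The reads of Hsp67Ba could not be told apart from those of an overlapping antisense RNA.

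The upstream stretches of the members that moved differently are shown first, because the letters upstream of each gene can be set beside its time course. They were read from the RefSeq Release 6 assembly (dm6), 5′ to 3′ on the strand of the gene. Capitals mark each pair of facing heat shock units, searched as GAANNTTC or TTCNNGAA, each of which reads the same on both strands. Positions are counted upstream from the 5′-most annotated start of the gene, the base before it being −1. Hsp26 is shown from −300 to −1 (chr3L:9377428-9377727, minus strand), Hsp23 from −420 to −121 (chr3L:9381462-9381761, plus strand), Hsp27 from −400 to −101 (chr3L:9383663-9383962, plus strand), Hsp67Bc from −224 to −1 (chr3L:9372498-9372721, minus strand) and Hsp67Ba from −300 to −1 (chr3L:9379535-9379834, minus strand).
Hsp26: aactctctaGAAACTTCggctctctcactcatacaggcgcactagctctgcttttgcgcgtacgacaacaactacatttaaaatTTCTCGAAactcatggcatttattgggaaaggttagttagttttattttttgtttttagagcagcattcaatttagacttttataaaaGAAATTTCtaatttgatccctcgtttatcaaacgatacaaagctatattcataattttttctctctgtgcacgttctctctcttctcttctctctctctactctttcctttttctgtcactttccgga
Hsp23: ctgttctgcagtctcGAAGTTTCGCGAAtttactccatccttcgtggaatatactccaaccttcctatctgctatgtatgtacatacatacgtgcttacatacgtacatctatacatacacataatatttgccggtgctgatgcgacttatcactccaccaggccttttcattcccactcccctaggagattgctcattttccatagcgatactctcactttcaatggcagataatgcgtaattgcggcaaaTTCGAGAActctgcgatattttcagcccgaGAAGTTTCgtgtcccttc
Hsp27: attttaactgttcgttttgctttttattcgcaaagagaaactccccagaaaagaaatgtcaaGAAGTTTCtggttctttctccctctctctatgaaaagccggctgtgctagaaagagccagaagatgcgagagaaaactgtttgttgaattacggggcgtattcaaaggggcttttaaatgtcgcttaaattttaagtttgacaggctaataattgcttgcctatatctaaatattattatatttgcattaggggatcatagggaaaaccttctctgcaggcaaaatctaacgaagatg
Hsp67Bc: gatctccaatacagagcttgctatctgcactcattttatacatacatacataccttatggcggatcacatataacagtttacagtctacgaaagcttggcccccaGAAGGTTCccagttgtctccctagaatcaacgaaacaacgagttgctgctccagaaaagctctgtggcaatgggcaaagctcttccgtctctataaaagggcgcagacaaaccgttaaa
Hsp67Ba: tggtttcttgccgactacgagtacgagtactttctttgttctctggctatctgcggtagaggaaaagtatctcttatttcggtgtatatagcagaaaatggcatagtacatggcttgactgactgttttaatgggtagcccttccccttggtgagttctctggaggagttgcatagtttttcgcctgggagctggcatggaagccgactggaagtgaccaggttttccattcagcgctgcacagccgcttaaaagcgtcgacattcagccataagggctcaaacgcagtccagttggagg

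Over the 500 bases upstream of the 5′-most start, Hsp26 held 4 such pairs, at −317, −291, −216 and −128, and Hsp23 held 4, at −405, −400, −168 and −138. The window of the downstream start of Hsp26 held 5, the added one at −49 from that start. The first 2 of Hsp23 overlap and form a longer motif, GAANNTTC followed by NNGAA, searched on both strands. Hsp27 held 1 pair, at −338, and Hsp67Bc 1, at −119. Hsp67Ba held none. l(2)efl held 4, at −471, −337, −267 and −124. For Hsp22, the window of the start within the shared transcript held 1, and that of its own downstream start held 2, at −188 and −87. Of the 13968 protein-coding genes of the annotation, 25.0% held at least 1 pair in this window, 0.115% (16 genes) held 4 or more, and 0.644% held the longer motif. The short motif GAGAG, which the GAGA factor binds, was searched on both strands, and overlapping matches were each counted. It occurred 9 times upstream of Hsp26, 3 times for Hsp27 and 1 time each for Hsp23 and Hsp67Bc. For the downstream start of Hsp22 it occurred 12 times, and for Hsp67Ba and l(2)efl it was not found. Counted in the same way, 41.0% of all promoters held at least 1 and 5.53% held 4 or more. TATAAA, searched on the strand of the gene with its first base between −45 and −20, was found at Hsp23, Hsp27, Hsp67Bc, l(2)efl, the downstream start of Hsp22 and the downstream start of Hsp26, and in 8.81% of all promoters. A match is a description of the letters and not of a bound site. Set beside the time courses, Hsp27 with 1 pair had a log2 fold change of 5.13 after 10 min of rest. Hsp26 with 4 pairs, or 5 from its downstream start, had 4.70, Hsp23 with 4 had 2.79 and l(2)efl with 4 had 0.56. Hsp67Bc with 1 pair had 2.85, and Hsp67Ba with none 1.04, the lowest value of the tested members in the cluster. Reads of Hsp67Ba cannot be told apart from those of an overlapping antisense RNA, as given below, so its value is not that of Hsp67Ba alone. Whether pairs and fold changes are related was not tested.

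Of the members, 6 lie within 14.2 kb of chromosome 3L (dm6, 9371511 to 9385694). In order along the chromosome these are Hsp67Bc (9371511 to 9372497, minus strand), Hsp22 (9372931 to 9374964, plus), Hsp26 (9376418 to 9377427, minus), Hsp67Ba (9377802 to 9379534, minus), Hsp23 (9381882 to 9382765, plus) and Hsp27 (9384063 to 9385694, plus). Apart from the longer transcript of Hsp22, which has 3 exons, every annotated transcript of these genes has 1 exon, so that their nuclear RNA needs no splicing. Reads of one member could hardly be taken for another. The longest run of bases shared by the exons of any of the 21 pairs of members was 19 bp.

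**Figure D1:**
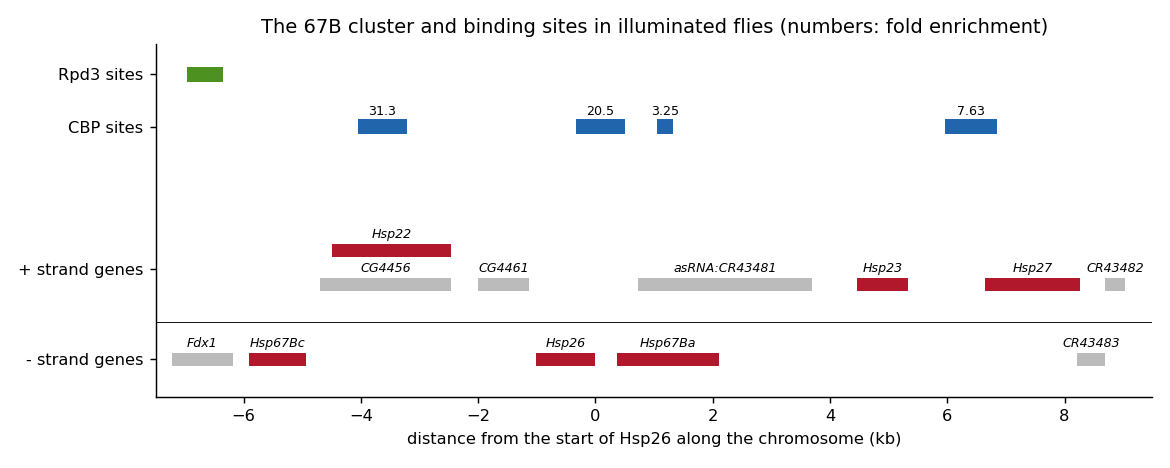
Map of the 67B cluster, with distance from the start of Hsp26 along the chromosome in kb on the horizontal axis. Red bars are members, grey bars other annotated genes, and blue and green bars the CBP and Rpd3 sites of illuminated flies, with the fold enrichment of each CBP site above it; CBP sites of 31.3-fold, 20.5-fold and 7.63-fold cover start sites of Hsp22, Hsp26 and Hsp27, and the Rpd3 site lies outside the members.

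Hsp22, a small heat shock protein of the mitochondrial matrix, could not be measured from this table. Its count was 0 in all 15 libraries. However, all 1900 bases of its exons are also exon of CG4456, on the same strand and named Hsp67Bb in the table, whose transcript runs through both coding regions. Hsp67Bb itself had between 0 and 7 counts per library. In the whole table, 418 of the 429 genes whose every exon base is shared with another gene on the same strand (97.4%) had no count in any library, against 10.9% of the 11946 genes that share no exon base. Reads from such shared exons were thus rarely given to either gene, and the 0 is no measure of Hsp22 RNA.

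**Figure D2:**
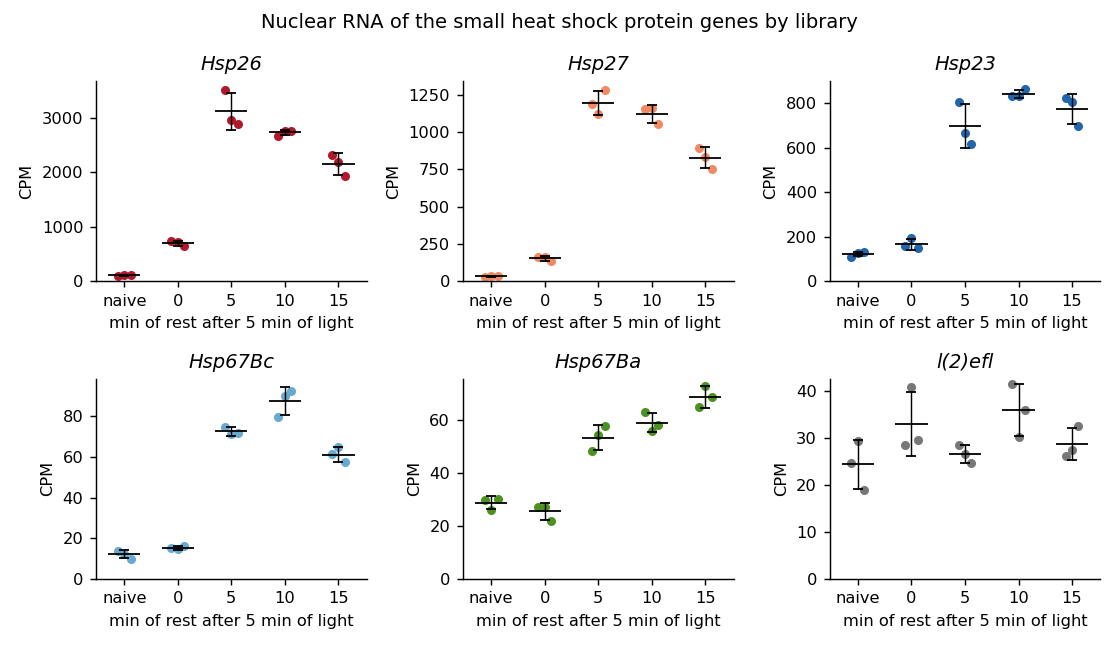
Level of each tested member in every library, in CPM on a linear axis from 0, by group (naïve, and min of rest after 5 min of light). Points are libraries, horizontal lines group means and bars SD (n = 3); the naïve and the rested libraries lie apart for every member except l(2)efl, whose groups overlap at 5 and 15 min.

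Hsp26, a cytosolic chaperone, had the highest level per kb of exon of all members in every illuminated group. Its level was 98.4, 103 and 113 CPM in the 3 naïve libraries. Right after light it was 738, 712 and 650.0 CPM, each above every naïve library. After 5 min of rest it was 3513, 2970.0 and 2893 CPM, after 10 min 2674, 2765 and 2771 CPM, and after 15 min 2319, 2202 and 1929 CPM. The 3 groups with rest did not overlap with the group right after light, and the levels after 5, 10 and 15 min stepped down without overlap. Against naïve flies, the log2 fold change was 2.74 ± 0.10 (SE) right after light, a 6.67-fold difference (edgeR quasi-likelihood test, adjusted p = 3.54e-18). It was 4.90 ± 0.10 after 5 min of rest (29.8-fold, adjusted p = 1.81e-24), 4.70 ± 0.10 after 10 min and 4.36 ± 0.10 after 15 min (20.5-fold). The step from 5 to 10 min of rest did not pass the test (log2 fold change −0.19 ± 0.09, adjusted p = 0.34). From 10 to 15 min of rest the level fell by 0.35 on the log2 scale (adjusted p = 0.00583). Right after light, Hsp26 ranked 34 of 11670 genes by fold change, and after 5 min of rest 17.

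Hsp27, which localises to the nucleus, had the largest fold change of the members once the flies had rested. Its level was 30.6, 33.3 and 32.7 CPM in naïve flies and 162, 161 and 136 CPM right after light. It then reached 1191, 1119.8 and 1282 CPM after 5 min of rest and 1153, 1163 and 1056 CPM after 10 min, 2 groups that overlapped. After 15 min it was 897, 836 and 756 CPM, below every library of the 10 min group. The log2 fold change against naïve flies was 2.25 ± 0.10 right after light (4.75-fold, adjusted p = 2.37e-16), 5.22 ± 0.11 after 5 min of rest (37.2-fold, adjusted p = 1.06e-24), 5.13 ± 0.11 after 10 min and 4.69 ± 0.11 after 15 min (25.8-fold). Between the end of the light and 5 min of rest alone, it rose 7.83-fold (adjusted p = 1.32e-19), rank 17 of all tested genes. From 10 to 15 min it fell by 0.44 on the log2 scale (adjusted p = 0.000634). The last 49 bases of its 1632 exon bases overlap CR43483, a non-coding gene on the other strand that had 2 to 47 counts per library.

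Hsp23, another cytosolic member, had the highest level per kb in naïve flies and changed mostly after the light. Its level was 109.6, 125 and 131 CPM in naïve flies and 156, 194 and 147 CPM right after light. The groups did not overlap, but the difference was small, 1.36-fold (log2 fold change 0.44 ± 0.11, adjusted p = 0.00815), and it rested on 1 library: without the second library taken right after light it was 0.31 (adjusted p = 0.0967). After 5 min of rest the level was 808, 666 and 619 CPM, after 10 min 830.4, 832 and 862 CPM and after 15 min 823, 805 and 697 CPM. These corresponded to 5.72-fold (log2 fold change 2.52 ± 0.11, adjusted p = 1.71e-16), 6.91-fold and 6.36-fold the naïve level. The step from the end of the light to 5 min of rest was 4.21-fold (adjusted p = 2.18e-14). Unlike the differences of Hsp26 and Hsp27, that of Hsp23 from 10 to 15 min of rest did not pass the test (log2 fold change −0.12 ± 0.11, adjusted p = 0.493), and whether the members differ in this step was not tested.

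Hsp67Bc, the member that works with the co-chaperone Starvin in the removal of aggregated protein, was measured at far lower counts, 126 to 1490 per library. Its level was 13.8, 12.3 and 9.99 CPM in naïve flies and 15.1, 14.5 and 16.2 CPM right after light, a difference that did not pass the test (log2 fold change 0.34 ± 0.12, adjusted p = 0.0964) although the groups did not overlap. Without the first naïve library it passed, at 0.46 (adjusted p = 0.0403). After 5 min of rest the level was 75.0, 71.1 and 71.8 CPM, and all rested libraries lay above all naïve ones. After 10 min it was 80.0, 90.1 and 92.8 CPM and after 15 min 61.4, 64.9 and 57.5 CPM. The fold change against naïve flies was 5.99 after 5 min of rest (log2 2.58 ± 0.12, adjusted p = 5.36e-16), 7.23 after 10 min and 5.05 after 15 min. From 10 to 15 min it fell by 0.52 on the log2 scale (adjusted p = 0.000975).

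Hsp67Ba, the longest of the tested members with 1733 exon bases, was not higher right after light and rose by a small factor during the rest. Its level was 29.9, 26.1 and 30.3 CPM in naïve flies and 27.2, 27.2 and 21.8 CPM right after light, 2 groups that overlapped (log2 fold change −0.18 ± 0.12, adjusted p = 0.405). It was 48.1, 54.1 and 57.6 CPM after 5 min of rest, 62.9, 55.7 and 58.0 CPM after 10 min and 64.6, 72.9 and 68.7 CPM after 15 min, above every naïve library each time. The fold change against naïve flies was 1.85 after 5 min (log2 0.89 ± 0.12, adjusted p = 1.59e-06), 2.05 after 10 min and 2.39 after 15 min (log2 1.26 ± 0.12, adjusted p = 2.92e-09). It was the 1 tested member whose highest group mean came at 15 min of rest.

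These counts of Hsp67Ba share their place with those of another RNA. Of its exon bases, 75.9% (1316 bp) are also exon of CR43481, an antisense RNA on the other strand. CR43481 had 499, 283 and 315 counts in the naïve libraries, where Hsp67Ba had 544, 385 and 382, and 754, 843 and 1024 after 15 min of rest, where Hsp67Ba had 653, 933 and 1087. Over the 15 libraries, the ratio of the 2 counts stayed between 0.735 and 1.15, and the log2 fold changes of CR43481 against naïve flies were −0.13, 0.998, 1.24 and 1.52 in order of time, next to −0.18, 0.89, 1.04 and 1.26 for Hsp67Ba. The strand setting of the counting is not given in the sources used here. Of the 129 genes whose every exon base is shared with a gene on the other strand only, 6.98% had no count. For genes shared on the same strand it was 97.4%, so reads in overlaps appear to have been given to genes by strand. The library kit does not mark strand, so reads of Hsp67Ba and of CR43481 cannot be told apart.

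**Figure D3:**
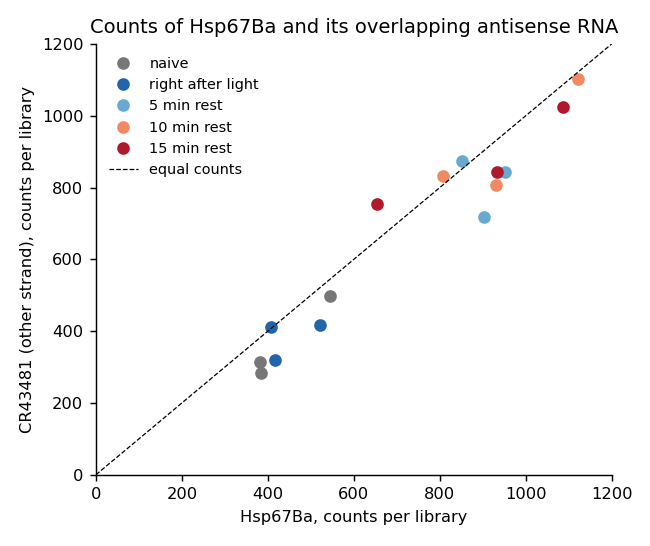
Counts of Hsp67Ba (horizontal axis) against counts of the overlapping antisense RNA CR43481 (vertical axis), both per library and linear from 0, coloured by group. All 15 points lie near the dashed line of equal counts, with ratios from 0.735 to 1.15.

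l(2)efl, lethal (2) essential for life, is the member outside the cluster. It lies on chromosome 2R (dm6, 23684651 to 23685543, minus strand), its transcripts have 3 exons, and 75 of its 741 exon bases (10.1%) overlap exons of St3 on the other strand. Its level was 24.7, 29.4 and 18.9 CPM in naïve flies, 28.4, 40.8 and 29.5 CPM right after light, 28.5, 26.5 and 24.6 CPM after 5 min of rest, 41.4, 30.2 and 35.9 CPM after 10 min and 26.1, 27.4 and 32.4 CPM after 15 min. Its groups overlapped with the naïve group at every time except 10 min of rest. There it was 1.47-fold higher (log2 fold change 0.56 ± 0.16, adjusted p = 0.00926), a call that was lost without the third naïve library (0.41, adjusted p = 0.0647) or without the first library of 10 min of rest (0.44, adjusted p = 0.0747). The log2 fold changes at the other times were 0.43 ± 0.16 right after light (adjusted p = 0.092), 0.12 ± 0.16 after 5 min and 0.24 ± 0.16 after 15 min of rest. Without the second naïve library, the difference right after light passed the test, at 0.58 (adjusted p = 0.0192). The summed level of the 11 muscle markers was 1083 to 1487 CPM in naïve flies and 1565 to 1971 CPM right after light. It was 1431 to 1441, 1586 to 1770 and 844 to 1282 CPM after 5, 10 and 15 min of rest. Right after light 6 of 11 were called higher and 0 lower, against 4.88% and 3.45% of all tested genes. After 10 min 4 were called higher and 1 lower, against 14.5% and 13.9%. After 5 min 0 were called higher and 1 lower, against 8.75% and 6.02%. After 15 min it was again 0 and 1, against 5.41% and 4.24%. The part of muscle in the level of l(2)efl was not tested.

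**Figure D4:**
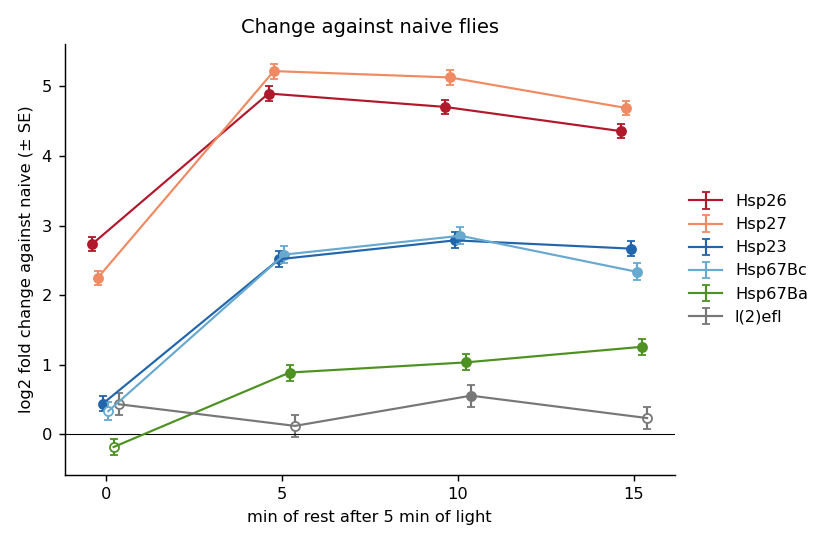
Log2 fold change of each tested member against naïve flies (vertical axis, bars ± SE of the fit) at 0, 5, 10 and 15 min of rest after 5 min of light. Filled points passed the test and open points did not; Hsp26 and Hsp27 sat above 4 at all 3 rest times, Hsp23 and Hsp67Bc between 2 and 3, Hsp67Ba near 1 and l(2)efl under 1.

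Counted over the members, 3 of the 6 tested (Hsp23, Hsp26 and Hsp27) were called higher right after light, where 4.88% of all tested genes were called higher and 3.45% lower. After 5 min of rest 5 of 6 were called higher, all but l(2)efl, against 8.75% of all genes called higher and 6.02% lower. After 10 min of rest all 6 were called higher, against 14.5% higher and 13.9% lower of all genes, and after 15 min 5 of 6 again, all but l(2)efl, against 5.41% and 4.24%. No member was called lower than in naïve flies at any time, by edgeR or by DESeq2, nor was any lower at an unadjusted p under 0.05. The median log2 fold change of the 6 was 0.44, 2.55, 2.82 and 2.50 in order of time, against −0.01, −0.02, −0.05 and −0.04 over all tested genes. These 4 comparisons share the naïve libraries. The counts of members include Hsp67Ba, whose reads cannot be told apart from those of CR43481.

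Between neighbouring times, the main step was that from the end of the light to 5 min of rest, in which 5 of 6 members were called higher, all but l(2)efl (−0.31), against 2.34% of all tested genes. From 5 to 10 min of rest no member was called by edgeR or DESeq2, against 1.69% of all genes called higher and 0.206% lower. At an unadjusted p under 0.05 there were 4, of which Hsp23 (0.27), Hsp67Bc (0.27) and l(2)efl (0.43) had positive and Hsp26 (−0.19) a negative log2 fold change. In a fit of those 6 libraries alone, Hsp23 (0.27, adjusted p = 0.0323) and l(2)efl (0.44, adjusted p = 0.0363) passed. From 10 to 15 min of rest 3 members were called lower, Hsp26, Hsp27 and Hsp67Bc, against 10.2% of all genes. Hsp67Ba had a log2 fold change of 0.22 in this step (adjusted p = 0.183). All 10 photoreceptor and all 4 fat body markers were called higher and 9 of 11 muscle markers lower in the same step, and their part in the members' values was not tested.

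As a percentage of its own highest group mean, each member had a different course. Right after light, Hsp26 stood at 22.4% of its highest mean, Hsp23 at 19.7%, Hsp67Bc at 17.4% and Hsp27 at 12.8%, from naïve levels of 3.36%, 14.5%, 13.7% and 2.69%. Hsp26 and Hsp27 had their highest means after 5 min of rest, Hsp23 and Hsp67Bc after 10 min and Hsp67Ba after 15 min. After 15 min of rest Hsp26, Hsp27 and Hsp67Bc were at 68.8%, 69.3% and 69.9% of their highest means, and Hsp23 at 92.1%. The rise of Hsp26 that was complete at the end of the light was 19.7% of the whole rise of its group means, that of Hsp27 10.4%, that of Hsp23 6.09% and that of Hsp67Bc 4.30%. The mean of Hsp67Ba was then below its naïve mean (−8.37% of its whole rise), and that of l(2)efl at 74.5% of a whole rise of 1.47-fold, in groups that overlapped with the naïve one. These orders are descriptions of group means, since no test compared one member with another.

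**Figure D5:**
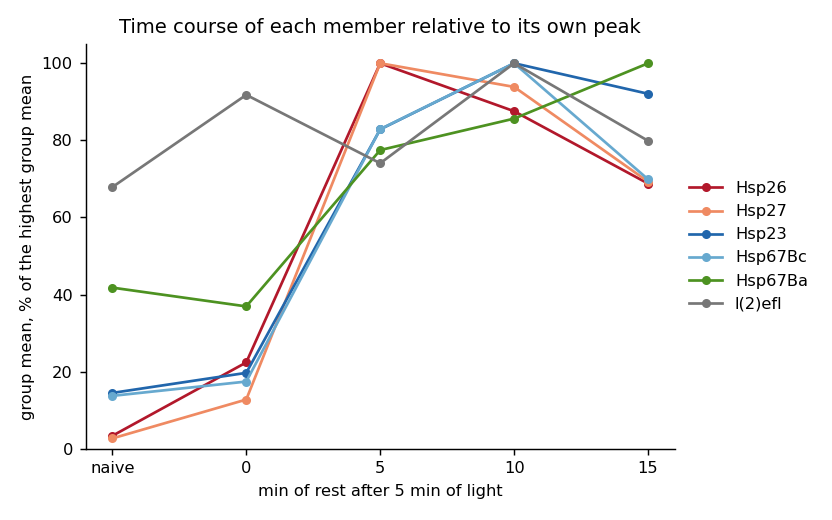
Group mean of each tested member as a percentage of its own highest group mean (vertical axis, from 0), by group (horizontal axis). Hsp26 and Hsp27 peaked after 5 min of rest, Hsp23 and Hsp67Bc after 10 min and Hsp67Ba after 15 min, while l(2)efl stayed between 67.9% and 100% in all groups.

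Levels of different genes were compared per kb of exon. Reads came mainly from the 3′ regions of transcripts, so that a level per kb understates long exons such as those of Hsp27 and Hsp67Ba. In naïve flies the order was Hsp23 at 138 ± 12.5 CPM per kb (SD, n = 3), Hsp26 at 104 ± 7.55, l(2)efl at 32.8 ± 7.05, Hsp27 at 19.7 ± 0.868, Hsp67Ba at 16.6 ± 1.34 and Hsp67Bc at 12.2 ± 1.96. No 2 neighbours in this order overlapped in their libraries. After 5 min of rest it was Hsp26 at 3094 ± 335 CPM per kb, Hsp23 at 789 ± 111, Hsp27 at 734 ± 49.7, Hsp67Bc at 73.6 ± 2.10, l(2)efl at 35.8 ± 2.67 and Hsp67Ba at 30.7 ± 2.77. Here Hsp23 and Hsp27 overlapped, as did l(2)efl and Hsp67Ba. After 10 min Hsp26 stood at 2709 ± 53.9, Hsp23 at 952 ± 20.2 and Hsp27 at 689 ± 36.4 CPM per kb, with no overlap between neighbours. After 15 min Hsp23 at 877 ± 77.2 and Hsp27 at 508 ± 43.4 CPM per kb did not overlap either. Per kb, Hsp27 was in the fourth place in naïve flies and in the third at all 3 rest times, overlapping with Hsp23 after 5 min of rest only. These places depend on the division by exon length. In CPM, the mean of Hsp27 was above that of l(2)efl in naïve flies (32.2 against 24.3). It was also above that of Hsp23 after 5 min (1198 against 697), 10 min (1124 against 842) and 15 min of rest (830 against 775). In CPM the libraries of Hsp27 and Hsp23 overlapped after 15 min.

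Chromatin at the members was described from the lists of binding sites that the study called in illuminated flies, 1 list each for CBP (an acetyltransferase and coactivator), the histone deacetylase Rpd3 and CoRest-C, a short isoform of its partner CoRest. For the last, the protein pulled down with an anti-myc antibody was CoRest-C::myc, a tagged transgene expressed in MB neurons by the driver MBsw, and not the endogenous isoform. Whether the flies of the RNA libraries carried this transgene too is not given in the sources used here. The lists hold no replicate values and none of naïve flies, so a change with light cannot be tested. A site within a gene or up to 1 kb upstream was found in the CBP list for 5 of 7 members. Leaving out Hsp22, which had no count, it was 4 of 6, against 34.8% of the 15388 annotated genes with any count. No member had a site of Rpd3 or CoRest-C, against 26.7% and 10.4% of those genes. The 5 members shared 4 CBP sites. The strongest (3L, 9373384 to 9374204) was enriched 31.3-fold with a −log10 p of 323, above 94.9% of the 6684 CBP sites by fold enrichment. It covers the downstream start of Hsp22 and reaches into the 1 kb upstream of Hsp67Bc. The next (9377093 to 9377932, 20.5-fold) covers both annotated starts of Hsp26, with its summit 16 bp downstream of the nearer one, and its edge overlaps the far end of Hsp67Ba. That at Hsp27 (9383381 to 9384272, 7.63-fold) covers its start, with its summit 50 bp upstream, and lies near the median of the list, 7.17-fold. The fourth (9378480 to 9378752, 3.25-fold) lies inside Hsp67Ba, 941 bp downstream of its start at the summit, and no listed site covers that start. Hsp23 had no site of any of the 3 proteins and was 6.91-fold higher after 10 min of rest. l(2)efl had none either.

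The other small heat shock protein genes and the other genes of the heat shock response give the setting of these changes. Of 5 other genes with the same domain, 4 were tested and edgeR called 0 of 4 right after light and after 5 and 15 min of rest, where 3, 0 and 1 had an unadjusted p under 0.05 and DESeq2 called 0, 0 and 1. After 10 min of rest CG14207 was called higher (0.69 on the log2 scale, adjusted p = 6.04e-07) and CG13133 lower (−1.06, adjusted p = 0.00964). CG4461, which lies between Hsp22 and Hsp26 in the cluster, had log2 fold changes of 0.52, 0.09, 0.24 and −0.17 in order of time, none of which passed the test. Of the 26 genes listed for Hsf and the larger heat shock proteins, 12 were called higher right after light, 17 after 5 min of rest, 19 after 10 min and 20 after 15 min, against 4.88%, 8.75%, 14.5% and 5.41% of all tested genes. Called lower were 2 right after light (Hsc70-3 and Hsp60), 2 after 5 min (Hsp60B and Hsp60C) and 2 after 10 min (Hsc70-2 and Hsp60C), against 3.45%, 6.02% and 13.9% of all tested genes. After 15 min edgeR called 0 of them lower, against 4.24%, and in either direction 23 of the 26 had an unadjusted p under 0.05 and DESeq2 called 21. The 4 largest changes after 10 min among them were those of the Hsp70 copies Hsp70Bbb (5.91), Hsp70Aa (5.89), Hsp70Bc (5.58) and Hsp70Ab (5.48), whose near-identical sequences make the split of reads between them uncertain. Hsf itself had log2 fold changes of −0.18, −0.01, 0.32 and 0.33 in order of time, of which the last 2 were called higher (adjusted p = 0.00871 and 0.0198).

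The genes whose levels ran most like the mean pattern of the 6 tested members were looked for over the 15 libraries, which share their groups, by Pearson's r of log2 CPM. They were Hsp68 (r = 0.98), an inducible member of the Hsp70 family, ade2 (0.98), an enzyme of purine synthesis, Hsp83 (0.98), the fly Hsp90, CG3281 (0.97) and Hsp70Bc (0.97). Their folds were far apart in size. After 10 min of rest Hsp68 was 30.8-fold, Hsp83 6.49-fold, CG3281 4.54-fold and ade2 2.11-fold the naïve level. The members themselves correlated with their mean pattern at 0.98 (Hsp27), 0.97 (Hsp23 and Hsp67Bc), 0.95 (Hsp26), 0.88 (Hsp67Ba) and 0.47 (l(2)efl). Each member is a part of that mean, which raises its r, so these values are not comparable with those of the genes above. Among the 5 genes most like each member alone, 4 were larger heat shock genes for Hsp26 and for Hsp27, 3 for Hsp67Ba, 2 for Hsp23 and for Hsp67Bc and 0 for l(2)efl. Hsp23 and Hsp67Bc were each in the 5 of the other, as were Hsp26 and Hsp27. The closest to Hsp67Ba was its antisense neighbour CR43481, whose reads cannot be told apart from its own, so this likeness says nothing about shared regulation.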

How the data were processed

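Nuclear RNA was measured in 15 libraries, 3 in each of 5 groups taken from the labels. The authors trimmed the paired reads with Trimmomatic, aligned them with STAR to dm6, dropped non-primary and poorly mapping alignments, and deposited raw HTSeq counts of the reads that fell on a gene's exons. Tool versions, annotation, counting mode and strand setting are not given in the sources used here. RNA was broken by reversal of the crosslink before oligo-dT selection, so reads came mainly from 3′ regions. For the binding sites, the deposited lists give the MACS fold enrichment and p-value (as −log10) of sites present in at least 2 of 3 illuminated replicates; duplicated entries were counted 1 time. A further table of the authors' own DESeq2 comparisons (fold changes and p-values) was not used.

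Counts were scaled by TMM, filtered with filterByExpr by group and tested in edgeR 4.0.16 (R 4.3.3, limma 3.58.1) with 1 quasi-likelihood fit of all 15 libraries and no covariate. P-values were adjusted by Benjamini-Hochberg over the 11670 genes tested, in each of 7 comparisons, and a gene was called at an adjusted p under 0.05. The SE is that of the log2 fold change. CPM are TMM-scaled. The fit was also run on counts simulated with its own estimate of the spread, which checks the code and not how well the fit suits these libraries. Replicates differed by more than sampling noise (chi-square per degree of freedom 4.91 to 32.3 over 15 pairs). Alternatives included DESeq2 1.42.0, other scalings and filters, a replicate block and leaving out each library. Named genes are all members, up to 4 called genes per list by size of change at 10 min of rest, and the 5 genes of most similar pattern by log2 CPM (prior count 2); Hsf, CG4461 and the genes overlapping members were added after their values were seen. Gene models were those of BDGP6 (Ensembl), with 17253 of 17559 identifiers matched, and sequences those of RefSeq Release 6. In the lists, 3 genes were found through their current symbols and CG32041 was not found. The members and gene lists were chosen with earlier results of these data known.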

Additional observations from a re-analysis of the deposited data

How the results depend on the processing

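Of 576 log2 fold changes of single members recomputed under alternatives, 566 kept their direction and their side of the threshold, 4 lost and 5 gained a call, and 1 changed sign: that of l(2)efl after 5 min of rest, which ranged from −0.022 to 0.27 when 1 library was left out and passed no test. The calls that changed concerned Hsp23, Hsp67Bc and l(2)efl in small differences only. Besides those given above, the difference of l(2)efl right after light passed with no filter on low counts (0.43, adjusted p = 0.0388), and that of Hsp23 right after light missed the threshold in a fit of only the 6 libraries compared (0.44, adjusted p = 0.0534). With 1 library left out, the members called ranged from 2 to 4 right after light and from 5 to 6 after 10 min of rest against naïve flies, and did not change in the other 5 comparisons. The count of members called from 5 to 10 min of rest went from 0 to 2 in a fit of only those 6 libraries. Over all genes, that comparison had 221 calls, 381 with DESeq2 and 621 with those 6 libraries alone, and 89 to 150 with 1 library left out. With only the 6 libraries compared, all genes called were 497 in place of 972 right after light, 1023 in place of 1724 after 5 min and 682 in place of 1126 after 15 min of rest. With 1 library left out, the lowest such count was 578 right after light (without its replicate 3) and 231 in place of 366 from there to 5 min of rest (without the second library right after light). At an adjusted p under 0.01 the number of members called did not change in all 7 comparisons. Under scaling by library size alone, the median of all genes after 10 min of rest moved from −0.05 to −0.17, and l(2)efl stayed called (0.44, adjusted p = 0.0322). A fit without the 3 libraries of 15 min of rest, chosen after seeing the data, changes only the shared spread, the filter and the scaling in the 5 comparisons that do not use them, and it kept every call of the members there. Replicate numbers did not pair the samples (correlations of same-numbered deviations −0.10 to 0.05, none of 30 over 0.1); a replicate block gave 3, 5, 6 and 5 members called against naïve flies in order of time and 5, 0 and 3 between neighbouring times, as without it. With 5 kb upstream, Rpd3 sites went from 0 to 1 member (Hsp22) and CBP sites from 5 to 7 members. The share of all genes with a site was not computed for this longer window, so these counts have no background to be read against. Ranking by Spearman kept 2 of the 5 genes of most similar pattern. Depth limited little for Hsp26, Hsp27 and Hsp23, with at least 412 counts in every library, whereas Hsp67Bc and l(2)efl had as few as 126 and 239.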
